A study of Mus musculus with 6 samples.

Results

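The transcripts of 10 genes were followed through muscle cell differentiation: the 5 condensin I genes Smc2, Smc4, Ncapd2, Ncapg and Ncaph, the 3 cohesin core genes Smc1a, Smc3 and Rad21, and the topoisomerase II genes Top2a and Top2b. They were taken by name, with every probe set annotated to one of these symbols alone, which gave 28 of the 45037 probe sets tested and 10 of the 18193 genes with a probe set of their own. RNA was taken from C2C12 cells, a mouse muscle precursor cell line that can be grown without limit and induced to fuse. The cells were either proliferating in medium with 20% fetal calf serum (3 arrays) or differentiated to day 6 in 2% horse serum (3 arrays). Each RNA sample was combined from 3 pools of 3 culture plates, the pools being set up on successive days, so the tests measure the spread between pooled samples of one cell line, and a share of the nuclei in the differentiated cultures was still in mononucleated cells. Both media held antibiotics, and no transgene, knockdown or other drug was part of either condition.

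Condensin and cohesin are ring-shaped complexes built on a pair of SMC ATPases closed by a kleisin subunit. Condensin I folds chromatids into compact mitotic chromosomes, while cohesin holds sister chromatids together and, in dividing and non-dividing cells alike, extrudes the chromatin loops of interphase. Type II topoisomerases pass one DNA duplex through another. Top2a is the form that cycling cells use to untangle sister chromatids, and Top2b is the form that is also present in cells that have left the cycle. Myoblasts leave the cell cycle before they fuse into myotubes.

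The 6 arrays were similar in their overall signal, with a median over all probe sets of 68.0 to 73.0 in the proliferating and 72.3 to 81.4 in the differentiated arrays, and arrays of one group correlated at a Pearson r of 0.937 to 0.942 across probe sets. The differentiation markers Myog, Mef2c, Acta1, Ckm, Tnnt3 and Mymk all rose, 6 of 6, where 8.67% of all genes rose. The summed signal of these markers went from between 674 and 723 to between 46362 and 49420. Of the muscle identity markers, Des rose by 0.82 on the log2 scale, and Myod1 (0.28) and Myf5 (-0.10) did not pass the test. Of 3 markers of quiescent reserve cells, Pax7 was at background on all 6 arrays, Spry1 rose by 1.91 and Cd34 (0.50) did not pass the test. Their summed signal was 281 to 328 against 898 to 1029, most of it from Spry1 alone (means of 199 and 790). Of 3 adipocyte markers Pparg was lower and Adipoq and Fabp4 did not pass the test (summed signal 257 to 297 against 191 to 275), and of 3 osteoblast markers limma called none in either direction, and none at an unadjusted p under 0.05 or by the regularized test (summed signal 222 to 365 against 247 to 459). The 3′ to 5′ ratio of the beta-actin control, a measure of RNA quality, was 1.23 to 1.31 in the proliferating and 1.07 to 1.11 in the differentiated arrays, and that of Gapdh was 0.822 to 0.855 and 0.789 to 0.833, which overlap, and their part in the results was not tested. In bulk RNA, fewer cells that express a gene and less of its RNA per cell cannot be told apart.

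Promoters were read for members that moved far and members that moved little, to show which short motifs of cell cycle promoters stand before each. The promoter table of RefSeq (build GRCm38.p6, 250 bases before to 50 bases after each start) held 8 of the 10 members, all but Smc4 and Rad21. The bases just upstream of the annotated gene are printed 5′ to 3′ along the gene for Smc2 (chr4:52439061-52439220, plus strand), Top2a (chr11:99024200-99024349, minus strand), Smc3 (chr19:53600236-53600395, plus strand) and Top2b (chr14:16365046-16365205, plus strand). Capitals mark the cell cycle homology region, CHR (TTTGAA and its variant form TTTAAA), the CCAAT box and the E2F site, each on either strand. The E2F site was searched with the spelling TTGGCGC, with the spelling TTGCCGC, with the spelling TTCGCGC and with the spelling TTCCCGC.
Smc2: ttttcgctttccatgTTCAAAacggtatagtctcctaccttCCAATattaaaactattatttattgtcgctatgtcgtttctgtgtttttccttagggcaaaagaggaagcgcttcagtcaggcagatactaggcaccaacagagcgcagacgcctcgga
Top2a: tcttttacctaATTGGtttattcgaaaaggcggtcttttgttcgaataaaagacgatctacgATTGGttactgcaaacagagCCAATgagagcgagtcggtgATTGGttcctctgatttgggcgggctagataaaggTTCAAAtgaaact
Smc3: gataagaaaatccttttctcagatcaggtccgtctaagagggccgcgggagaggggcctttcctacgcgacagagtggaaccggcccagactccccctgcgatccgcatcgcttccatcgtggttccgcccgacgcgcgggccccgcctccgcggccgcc
Top2b: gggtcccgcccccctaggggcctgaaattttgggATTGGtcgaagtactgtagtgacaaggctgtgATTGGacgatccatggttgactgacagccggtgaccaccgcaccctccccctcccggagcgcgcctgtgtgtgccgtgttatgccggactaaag

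Within the full windows, the Top2a promoter held 6 CCAAT boxes and 2 CHR matches, the nearer CHR starting 23 bases before the start, and 26 of 32851 promoters in the table (0.0791%) held 6 or more CCAAT boxes. The Top2b promoter held 2 CCAAT boxes, 126 and 94 bases before the start, and no CHR or E2F match. The Smc2 promoter held a CHR 145 bases and a CCAAT box 119 bases before the start, and a further CHR match after it. Ncapd2 held 3 CCAAT boxes, a CHR 123 bases before the start and an E2F match, and Ncapg held a CHR 30 bases before the start, a CCAAT box and an E2F match. Ncaph held an E2F match alone, Smc1a a CCAAT box and an E2F match, and Smc3 none of the motifs. A CHR was thus found in 4 of the 8 members and in 27.6% of all promoters, a CCAAT box in 6 of 8 and 37.4%, an E2F site in 4 of 8 and 9.57%, and a CHR together with a CCAAT box in 4 of 8 and 10.7%, with no overlapping matches among members. These are matches of letters and say nothing of binding in these cells.

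Of the 10 genes, each represented by its brightest probe set, 9 fell on differentiation and 1, Top2b, did not pass the test (limma, adjusted p under 0.05 over all 45037 probe sets). Over the whole array 9.05% of the 18193 genes fell and 8.67% rose. None of the 10 rose by limma, and none did so at an unadjusted p under 0.05. None rose by a regularized test of the kind named in the study's methods, run here on log2(signal + 15) and not on GCRMA values. In the same 9 genes the proliferating and differentiated arrays did not overlap, against 15.5% of all genes that were lower with no overlap. Counted by probe set, 18 of 28 fell and none rose, where 6.43% of all probe sets fell. Of the 28, 22 were above background on all 3 proliferating arrays and 17 on all 6, and 3 were at background on every array, background being the brightest of 27 bacterial control probe sets on each array (51.9 to 87.0). The median log2 fold change of the 10 genes was -2.06, beside 0.06 over all genes. All fold changes here are differences of log2(signal + 15), differentiated minus proliferating, a scale that understates the change of dim probe sets.

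**Figure D1:**
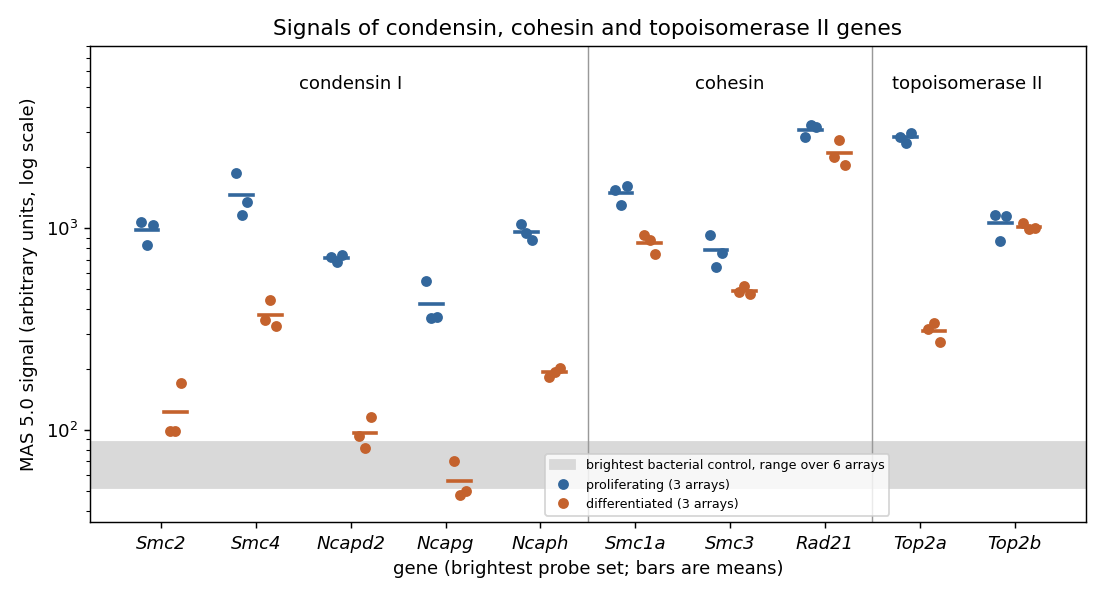
Signal of each of the 10 genes on each of the 6 arrays (brightest probe set, log axis), proliferating and day 6 differentiated, with short bars at the group means and a grey band over the range of the brightest bacterial control. The 5 condensin I genes and Top2a sit far lower in the differentiated arrays, the 3 cohesin genes lower by a smaller step, and the Top2b points of both groups overlap.

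The condensin I genes fell together, 5 of 5, where 9.05% of all genes fell. Their median was -2.61 and their range -2.88 to -1.91, and they kept between 12.6% and 25.5% of their proliferating signal. Smc2 (chr4:52439221-52488365), one of the ATPases that form the condensin ring, measured 1074.2, 826.5 and 1032.8 in the proliferating arrays and 99.2, 99.2 and 171.2 in the differentiated arrays. All 3 differentiated values lay well under the lowest proliferating value. The change was -2.88 ± 0.20 (SE, n = 3 per group, adjusted p = 7.6e-07, limma). Its partner ATPase Smc4 (chr3:69004738-69034623) measured 1876.6, 1161.5 and 1346.5 against 349.9, 441.2 and 328.0. It was the condensin I gene that fell least by its brightest probe set, by 1.91 ± 0.17 on the log2 scale (adjusted p = 6.3e-06), with no overlap between groups, and its other probe sets fell by 1.54 and 1.49.

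Ncapd2 (chr6:125168007-125192100), a HEAT-repeat subunit that is found in condensin I and not in condensin II, measured 719.3, 683.7 and 735.0 in proliferating cells and 93.6, 81.8 and 116.2 after differentiation. The groups lay far apart and each was tight (713 ± 26.3 against 97.2 ± 17.5, mean ± SD), for a change of -2.71 ± 0.17 (SE, adjusted p = 3.0e-07). Ncapg (chr5:45669891-45700547), the other HEAT-repeat subunit, measured 545.0, 359.7 and 364.8 against 70.6, 47.5 and 50.2. It fell by 2.61 ± 0.25 (adjusted p = 1.4e-05), with the differentiated signal above background on only 1 of 3 arrays. Its second probe set was at background on all 3 differentiated arrays and was at least 3.27-fold lower there (adjusted p = 0.0034). Ncaph (chr2:127103809-127133954) encodes the kleisin that closes the ring, and its brightest probe set, of a design that may also bind other transcripts, measured 1044.0, 952.0 and 875.4 against 183.9, 193.8 and 202.1. These values did not overlap and gave -2.22 ± 0.13 (adjusted p = 1.5e-07). Its other probe set, of the standard design, fell by 3.01 ± 0.18 (adjusted p = 2.4e-07), from 683.7, 593.9 and 596.0 to 62.9, 59.6 and 70.4.

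Where 6.43% of all probe sets fell, 10 of 14 within condensin I did so and 4 did not pass the test. They were 3 probe sets of Smc2, -0.99, -0.72 and 0.03, of which the first and last were at background on all 6 arrays, and 1 of Ncapd2, -0.23 (adjusted p = 0.80), which was above background on all 6 arrays, ranged from 64.7 to 138.1 and overlapped between groups. A further Smc2 probe set was at background on all differentiated arrays and above it on 2 of 3 proliferating arrays, and was at least 1.35-fold lower (adjusted p = 0.016). When the probe sets of a gene were averaged, the changes of Smc2 and Ncapd2 shrank to -1.31 and -1.47, and both were still called.

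**Figure D2:**
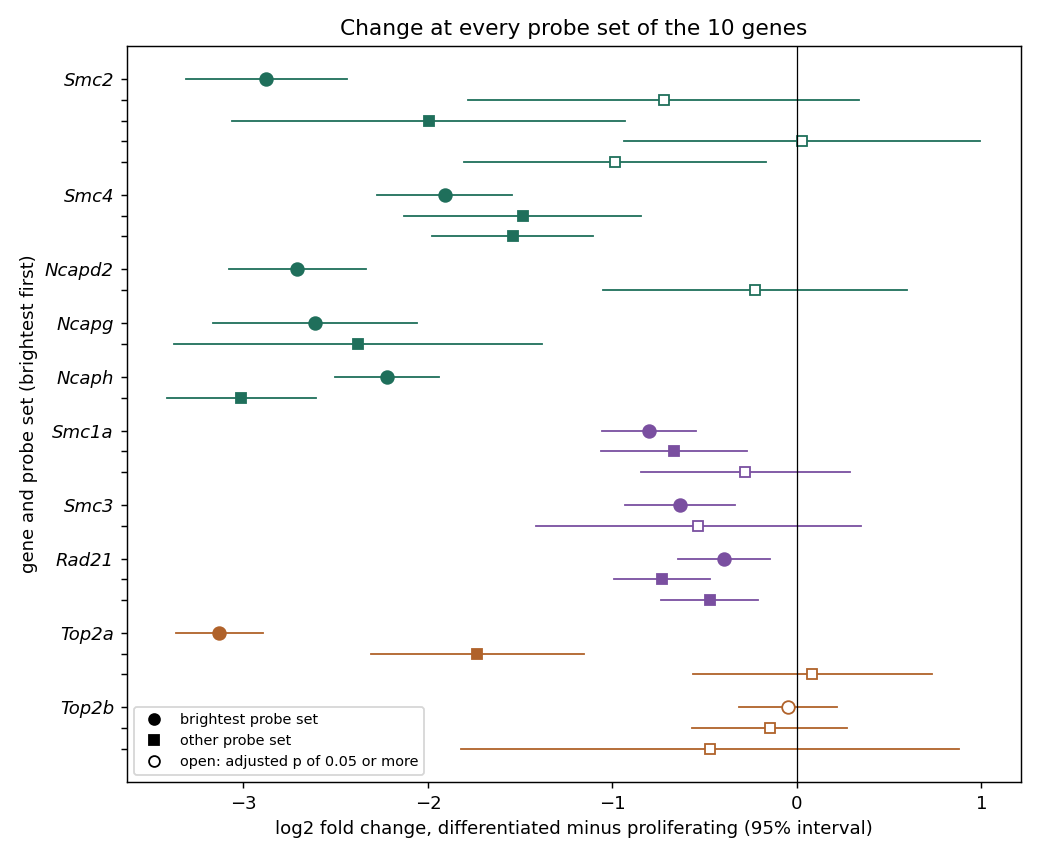
Log2 fold change (differentiated minus proliferating, log2(signal + 15)) of each of the 28 probe sets with its 95% confidence interval, grouped by gene, with circles for the brightest probe sets and open symbols where the test was not passed. The brightest probe sets of condensin I and Top2a lie between -3.13 and -1.91, those of cohesin between -0.80 and -0.40, and the 3 Top2b intervals all include 0.

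The cohesin core genes also fell, 3 of 3 where 9.05% of all genes fell, by much smaller steps. The median was -0.63, the range -0.80 to -0.40, and 57.0% to 76.4% of the proliferating signal was kept. Smc1a (chrX:152016428-152061973), an ATPase of the cohesin ring, measured 1548.1, 1305.0 and 1617.3 against 925.7, 878.5 and 743.0. The lowest proliferating value was still above the highest differentiated one, and the change was -0.80 ± 0.12 (SE, adjusted p = 0.00046). Smc3 (chr19:53600396-53645831), its partner ATPase, measured 931.4, 646.5 and 754.9 against 485.7, 516.3 and 470.0. Again the groups did not overlap, and the change was -0.63 ± 0.14 (adjusted p = 0.0078).

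Rad21 (chr15:51962604-51993538), the kleisin that separase cuts at anaphase, had the smallest fall of the 3 by its brightest probe set, which measured 2828.9, 3229.9 and 3187.5 against 2262.7, 2750.3 and 2047.7. The groups came close without overlapping, and the change was -0.40 ± 0.12 (SE, adjusted p = 0.041). Its other probe sets fell by 0.73 (adjusted p = 0.00098) and 0.47 (adjusted p = 0.021), so all 3 fell. The one that fell by 0.47 is of a design that may also bind other transcripts. Over cohesin as a whole 6 of 8 probe sets fell, where 6.43% of all probe sets fell. The 2 that did not pass the test were 1 of Smc1a (-0.28) and 1 of Smc3 (-0.53). The Rad21 call was lost under quantile normalization (-0.32, adjusted p = 0.11), and when any single array other than differentiated replicate 2 was left out (-0.46 to -0.30). In a limma fit whose prior variance did not follow the signal level no cohesin gene passed, with adjusted p = 0.060 for Smc1a, 0.13 for Smc3 and 0.30 for Rad21, and the Smc3 call was also lost with its probe sets averaged (-0.58, adjusted p = 0.13).

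Set against each other, condensin I moved away from cohesin on every differentiated array. The mean log2 signal of the 5 condensin I genes minus that of the 3 cohesin genes, relative to its proliferating mean, was 0.14, -0.04 and -0.10 in the proliferating arrays and -1.90, -2.05 and -1.61 in the differentiated arrays. The mean difference was -1.86, with an SD of 0.12 between proliferating and 0.22 between differentiated arrays, so the shift was many times the spread between arrays. No p-value is given for this score over chosen genes. At the brightest probe sets the 95% confidence intervals of single genes lay apart as well. The condensin I gene that fell least, Smc4, had an interval of -2.28 to -1.54. The cohesin gene that fell most, Smc1a, had one of -1.06 to -0.54. Other probe sets did not all keep this gap. The Smc4 probe set that fell by 1.49 had an interval of -2.13 to -0.84, which overlaps that of Smc1a. The interval of the Ncapd2 probe set that did not pass, -1.05 to 0.60, overlaps it too.

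Top2a (chr11:98992947-99024199) had the most negative change of the 10 genes by brightest probe set over the 6 arrays, and its paralogue Top2b (chr14:16365206-16430787) was the one that did not pass the test. Top2a measured 2844.3, 2657.8 and 2953.7 in the proliferating arrays and 317.0, 339.0 and 272.9 in the differentiated arrays. Both groups were tight and lay far apart, 2819 ± 150 against 310 ± 33.7 (SD, n = 3), a 9.10-fold fall in mean signal and a log2 change of -3.13 ± 0.11 (SE, adjusted p = 1.6e-09). The order was not fixed: without differentiated replicate 3 Smc2 changed by -3.11 and Top2a by -3.05, and with probe sets averaged Top2a (-1.59) changed less than Ncaph (-2.62), Ncapg (-2.50) and Smc4 (-1.65). Over all genes, 52 of 18193 (0.286%) had a fitted fold change at least as negative. A second Top2a probe set fell by 1.73 (adjusted p = 0.00063), from 291.6, 234.1 and 207.3 to 61.3, 64.5 and 61.3, and the remaining one was at background on all 6 arrays.

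Top2b measured 1169.7, 867.6 and 1145.9 in the proliferating arrays against 1056.5, 993.1 and 1004.5 in the differentiated arrays. The differentiated values all lay inside the proliferating range. The change was -0.05 ± 0.12 (SE, adjusted p = 0.89), and its 95% confidence interval, -0.31 to 0.22 on the log2 scale, includes small changes in either direction, so the test does not show that the level was the same. The sign turned, to 0.029 and 0.014, without proliferating replicate 1 or 3. The 2 dimmer Top2b probe sets changed by -0.15 and -0.47, both with adjusted p = 0.74, and their groups overlapped too.

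The log2 signal of Top2a minus that of Top2b, relative to its proliferating mean, was -0.14, 0.19 and -0.05 in the proliferating arrays and -3.10, -2.92 and -3.23 in the differentiated arrays. The difference of the group means was -3.08, with an SD of 0.17 and 0.16, and the 2-sided exact permutation p was 0.1, the smallest that 3 against 3 arrays can give. With all probe sets of each gene averaged the shift was smaller, -1.37. Such an average gives every probe set the same weight, the Top2a ones at background and with a fall of 1.73 included. The reason for the smaller shift was not tested.

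Genes with a pattern most like that of each topoisomerase were found by the Euclidean distance between log2 signals over the 6 arrays, each gene relative to its proliferating mean, among 11444 genes with a mean signal over the array-wide median. With only 2 conditions, this distance mostly ranks genes by a like change. Whether a gene listed here passed the test thus largely follows from how it was picked. Nearest to Top2a was Kif20a (distance 0.27, log2 fold change -3.19), a kinesin of the central spindle. After it came E2f7 (0.35, -3.09), a repressor of the E2F family, Etv4 (0.36), an ETS transcription factor whose differentiated signal was at background on all 3 arrays, so that its place in the order is uncertain and it was at least 3.72-fold lower (adjusted p = 0.00015), Pbk (0.36, -3.15), a mitotic kinase, and Asf1b (0.37, -3.16), a histone chaperone. Nearest to Top2b were Kdm1a (0.045, -0.03), a histone demethylase, Atf2 (0.10, -0.08), Ddx3x (0.11, -0.09), Mmp16 (0.12, -0.01) and Usp9x (0.13, -0.11). Mmp16 was dim, with mean signals of 88.5 in the proliferating and 87.2 in the differentiated arrays.

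The wider set of genes around these complexes, 51 listed by role, had 49 with a probe set of their own, all but Rad21l and Zfp143. Of the 49, 26 fell, 1 rose and 22 did not pass the test, where 9.05% of all genes fell and 8.67% rose. Their median was -0.63 (-0.61 with 4 genes at background in one group set to their bounds), beside 0.06 over all genes. Of their 61 other probe sets, in 30 genes, 9 fell, 2 rose and 50 did not pass the test. Where the brightest probe set fell, 6 of the others fell too and 15 did not pass, and where it did not pass, 3 of the others fell, 2 rose and 35 did not pass. The falls by brightest probe set lay unevenly over the roles. All 3 condensin II subunits, which act with Smc2 and Smc4 inside the prophase nucleus, fell, with a median of -1.33. The HEAT-repeat subunit Ncapg2 went from 470 ± 113 to 107 ± 6.90 (SD, n = 3) and fell by 1.96 ± 0.21 (SE, adjusted p = 3.1e-05). Ncapd3 went from 401 ± 25.3 to 152 ± 31.3 and fell by 1.33 ± 0.18 (adjusted p = 0.00028). The kleisin Ncaph2, 1654.8, 1817.0 and 1745.9 against 1130.5, 1165.9 and 1114.2, fell by 0.61 ± 0.09 (adjusted p = 0.00053). The groups did not overlap at these 3 brightest probe sets, where 15.5% of all genes were lower with no overlap. The 3 other Ncaph2 probe sets did not pass the test (-0.38, -0.58 and -0.22, adjusted p = 0.23, 0.17 and 0.66) and their groups overlapped. Of the 2 other Ncapd3 probe sets 1 fell, by 0.67 (adjusted p = 0.032), and 1 did not pass (-0.86, adjusted p = 0.32).

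Each condensin I subunit was then set against its condensin II counterpart within each array, pairs chosen after their values were seen, so the tests describe these arrays only. Ncaph moved away from Ncaph2 by -1.61 (SD 0.17 proliferating, 0.078 differentiated) and Ncapd2 from Ncapd3 by -1.38 (SD 0.14 and 0.47), each with an exact permutation p of 0.1, again the smallest possible. Ncapg against Ncapg2 shifted by -0.65 (SD 0.40 and 0.33), with proliferating replicate 3 lying under differentiated replicate 1, and an exact permutation p of 0.2. Ncapg was above background on 1 of the 3 differentiated arrays. Over the 6 pairs tested in this way, Top2a against Top2b included, the Benjamini-Hochberg adjusted value was 0.12 for those at 0.1 and 0.2 for Ncapg against Ncapg2.

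Genes that establish, protect or end sister chromatid cohesion mostly fell, 10 of 12, where 9.05% of all genes fell. Their median was -2.43 (-1.56 with 3 genes at their bounds). Pttg1, securin, the inhibitor of separase, measured 8045.6, 8641.9 and 7535.7 against 799.5, 616.2 and 777.5, a change of -3.45 ± 0.11 (SE, adjusted p = 1.0e-09). Another Pttg1 probe set fell by 3.19 (adjusted p = 1.6e-09), and the remaining one did not pass (-0.13, adjusted p = 0.93). Cdca5, sororin, which keeps cohesin on replicated chromatids, went from 1089.4, 1027.5 and 944.7 to 97.8, 86.5 and 102.6, a change of -3.23 ± 0.15 (adjusted p = 1.7e-08). At their brightest probe sets both genes lay about an order of magnitude lower in every differentiated array. Sgo1, shugoshin, which guards cohesion at centromeres, fell by 3.23 ± 0.37 (adjusted p = 6.1e-05), and its signal after differentiation cleared background on a single array of 3. Chtf18, of the clamp loader that acts in cohesion establishment, was at background in all differentiated arrays and at least 3.03-fold lower (adjusted p = 0.00081).

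The 2 genes of this list that did not pass were Hdac8 (0.22), the Smc3 deacetylase, and Esco1 (0.32), one of the pair of acetyltransferases that modify Smc3, named here after their values were seen. The other acetyltransferase, Esco2, which acts in S phase, measured 126.5, 61.7 and 102.0 against 11.9, 10.8 and 4.3. It was at least 1.57-fold lower (adjusted p = 0.0070), all differentiated arrays being at background. Esco1 measured 220.1, 171.4 and 232.5 against 239.6, 318.8 and 235.0, higher on each differentiated array but short of the threshold (95% interval of the change -0.11 to 0.75, adjusted p = 0.39).

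Among the genes that load cohesin or release it 1 of 5 fell and none rose, and among those that complete its ring 0 of 5 were called. Over all genes 9.05% fell and 8.67% rose, so counts this small do not set these genes apart. Of the 5 loading and release genes, Pds5a, which binds cohesin and takes part in its release, fell by 0.80 ± 0.15 (SE, adjusted p = 0.0031), from 742 ± 147 to 414 ± 31.5 (SD, n = 3). The other 4 are named after their values were seen. The loader genes Nipbl (0.53, adjusted p = 0.13) and Mau2 (0.34, adjusted p = 0.33) and the release factor Wapl (0.30, adjusted p = 0.33) had fold changes above 0, and Pds5b one of -0.33 (adjusted p = 0.45). Of the 3 other Mau2 probe sets 1 rose, by 1.57 (adjusted p = 0.033), being above background on 1 of 3 proliferating and all 3 differentiated arrays, and the 2 other Pds5a probe sets did not pass (0.27 and 0.21). The list's median was 0.30, beside 0.06 over all genes. None of the 5 further cohesin subunits was called by limma in either direction, while 1 was lower at an unadjusted p under 0.05 and 1 by the regularized test. Their median was -0.02, with the meiotic subunits Stag3, Rec8 and Smc1b at background on all 6 arrays. Stag2, a subunit that completes the somatic ring, and its paralogue Stag1 are also named after their values were seen. Stag2 measured 1042.6, 597.0 and 804.1 against 835.0, 857.7 and 756.3, and its change of 0.04 had a 95% interval of -0.32 to 0.40. Stag1 measured 650.3, 375.0 and 679.3 against 344.0, 423.2 and 294.5, with some overlap, and its brightest probe set changed by -0.63 (adjusted p = 0.078). Of the 6 Stag1 probe sets 2 fell, by 0.90 (adjusted p = 0.025) and 0.84 (adjusted p = 0.0054). The remaining ones did not pass and differed in sign (-0.43, 0.06 and 0.85, adjusted p = 0.36, 0.94 and 0.46). The shift of Stag1 against Stag2 was -0.67 and that of Pds5a against Pds5b -0.47, each with an exact permutation p of 0.1, and both pairs were picked after their values were seen.

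**Figure D3:**
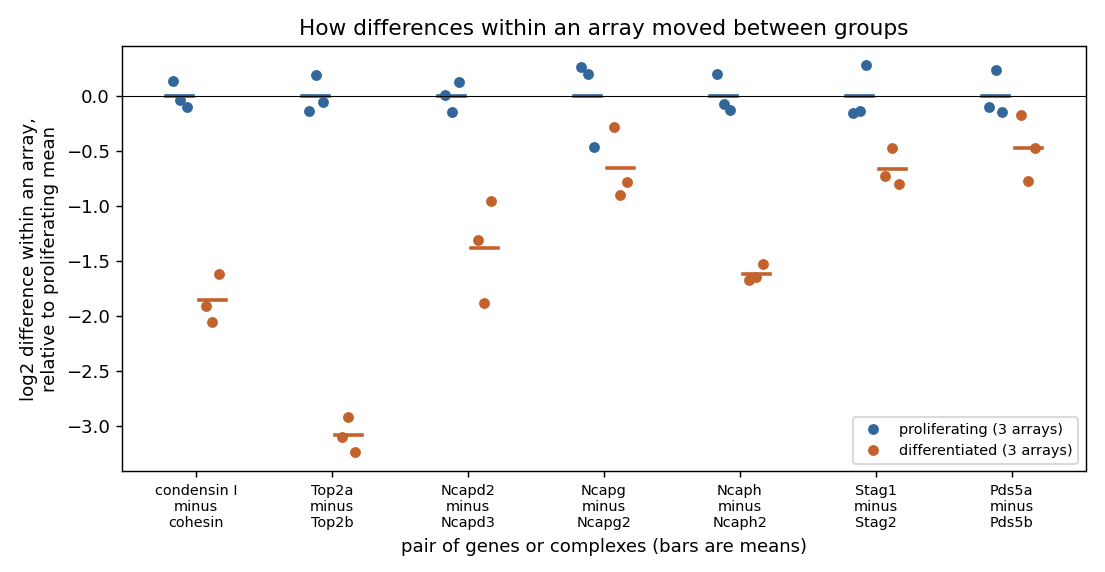
Difference of log2(signal + 15) between the 2 sides of each of 7 pairs, within each of the 6 arrays and relative to the mean of the proliferating arrays, with short bars at the group means. On the differentiated arrays condensin I minus cohesin lies between -2.05 and -1.61 and Top2a minus Top2b between -3.23 and -2.92, with the proliferating arrays of these pairs between -0.14 and 0.19, while the groups of Ncapg minus Ncapg2 overlap.

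The genes listed as mitotic chromosome partners all fell, 8 of 8, with a median of -2.96, where 9.05% of all genes fell. The list was chosen with earlier results of these data known. Mki67, which coats mitotic chromosomes, fell by 3.79 ± 0.15 (SE, adjusted p = 4.2e-09), from 1841.8, 1508.9 and 1995.8 to 120.6, 97.7 and 126.7. Hmgb2, a DNA-bending chromatin protein, fell by 3.43 ± 0.12 (adjusted p = 1.6e-09). Cdk1, the mitotic kinase that phosphorylates condensin, measured 4422.2, 4985.8 and 4492.6 against 463.7, 448.2 and 504.5, a change of -3.25 ± 0.10 (adjusted p = 4.9e-10). Nusap1, a microtubule-binding protein of the spindle, fell by 3.03 ± 0.17 (adjusted p = 1.2e-07). The proliferating and differentiated arrays were apart in each of the 4, where 15.5% of all genes were lower with no overlap. The other Nusap1 probe set did not pass (-0.35, adjusted p = 0.66), and of the 2 others of Hmgb2 1 fell by 2.53 (adjusted p = 3.7e-07) and 1 did not pass (-0.67, adjusted p = 0.43). The Hmgb2 probe set that fell by 2.53 is of a design that may also bind other transcripts.

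In the related Smc5/6 complex, which acts in DNA repair, 1 of 6 genes fell, 1 rose and 4 did not pass the test. The median was -0.36. Over all genes 9.05% fell and 8.67% rose, so counts this small do not set the complex apart. Nsmce3, a MAGE-family subunit of the complex, was the single riser of the wider set. It measured 268.2, 281.7 and 230.4 in the proliferating arrays and 561.5, 528.5 and 600.9 in the differentiated arrays, all of the latter well above the former, and rose by 1.08 ± 0.14 (SE, adjusted p = 0.00016). Nsmce2, its SUMO ligase, fell by 0.86 ± 0.13 (adjusted p = 0.00044), from 596 ± 20.7 to 323 ± 24.1. Smc6, one of the ATPases of the complex, named after its values were seen, did not pass at its brightest probe set (-0.45, adjusted p = 0.061), while 1 of its 5 others fell by 1.30 (adjusted p = 0.0020).

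Among the other topoisomerases and their partners 2 of 8 fell, where 9.05% of all genes fell. None rose (by limma, at an unadjusted p under 0.05 or by the regularized test), where limma called 8.67% of all genes higher. The median was -0.32 (-0.26 with 1 gene at its bound). Tdp2, which frees DNA ends from trapped topoisomerase II, fell by 0.82 ± 0.15 (SE, adjusted p = 0.0022), from 610 ± 59.7 to 342 ± 58.8. Rmi2, a partner of topoisomerase III in the Bloom complex, was at background in all differentiated arrays and in 1 of 3 proliferating arrays, and was at least 1.16-fold lower (adjusted p = 0.016). Top1, the type I enzyme that relaxes DNA ahead of RNA polymerase, named after its values were seen, measured 1335.2, 940.4 and 1158.5 against 1397.8, 1167.2 and 1276.5. Its groups overlapped, as those of Top2b did, and the change was 0.17 (95% interval -0.11 to 0.45, adjusted p = 0.51). Of the 2 loop anchoring factors measured, Ctcf, which stops loop-extruding cohesin, fell by 0.44 ± 0.12 (adjusted p = 0.029), from 641 ± 27.4 to 469 ± 43.3, and its other probe set did not pass (-0.17, adjusted p = 0.72). Yy1, named after its values were seen, changed by -0.02 at its brightest probe set, and another of its probe sets rose by 0.54 (adjusted p = 0.0046).

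**Figure D4:**
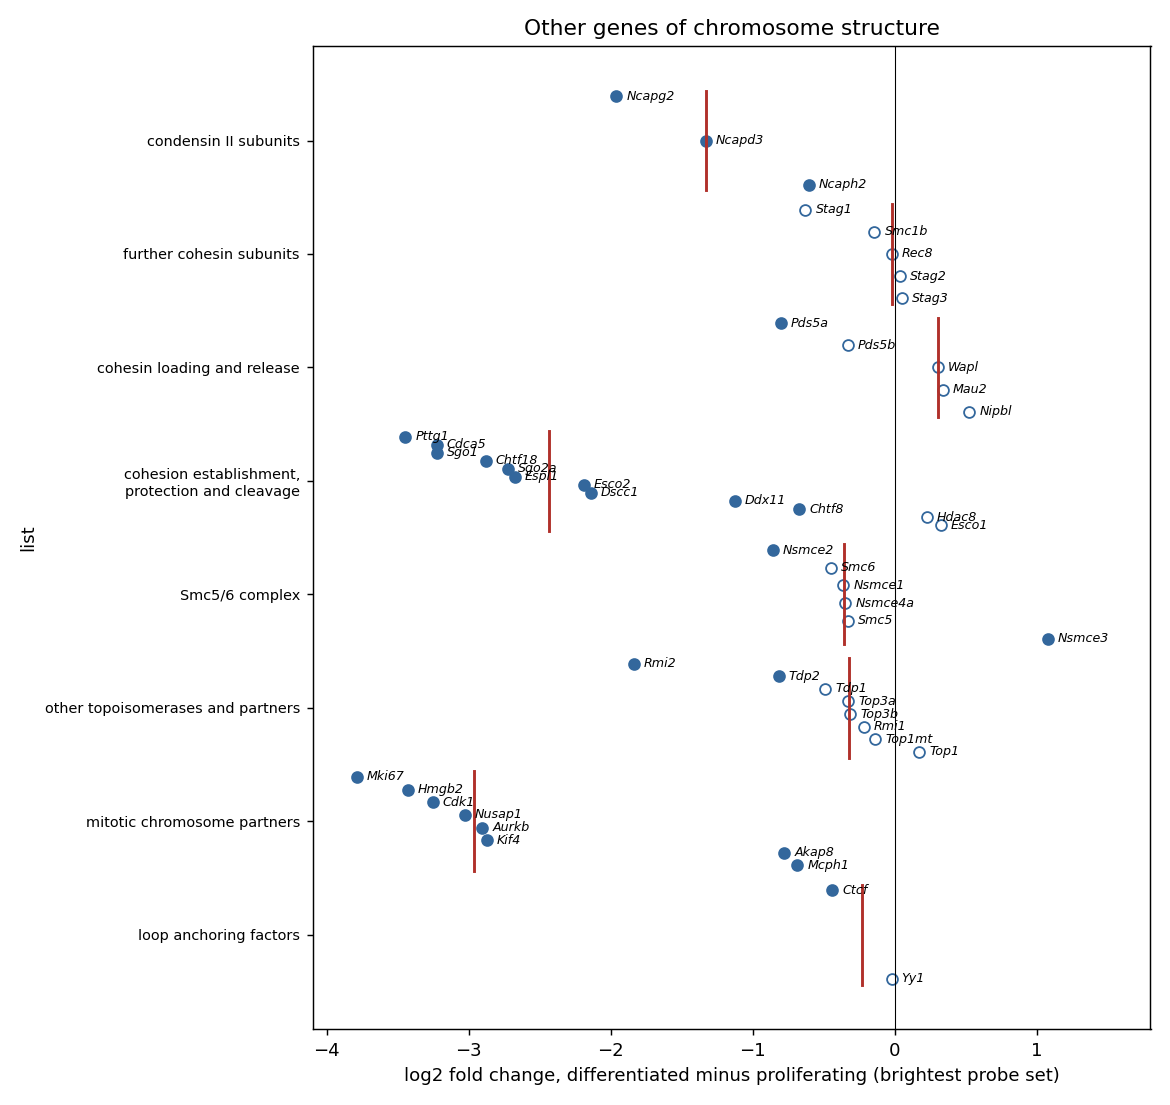
Log2 fold change (differentiated minus proliferating, log2(signal + 15)) of the brightest probe set of each gene of the wider set, by role, with filled points for called and open points for not called genes and a red line at the median of each list. Mitotic chromosome partners and cohesion establishment, protection and cleavage have medians of -2.96 and -2.43, whereas loading and release genes and further cohesin subunits have medians of 0.30 and -0.02; genes at background in one group are drawn at their fitted value, not their bound.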

How the data were processed

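Transcripts were measured on 6 Affymetrix mouse arrays, 3 of proliferating and 3 of day 6 differentiated C2C12 cells, 1 per pooled RNA sample. Per the study's methods, the intensity values deposited by the authors were linear MAS 5.0 signals, one per probe set of 11 probe pairs. The files show a common trimmed mean of 250 on each array. The GCRMA processing in the study's methods needs probe-level files and was not repeated here. Array data hold no read depth, and the number of arrays limits the precision.

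After 64 control probe sets of 45101 were left out, log2(signal + 15) was compared with limma 3.58.1 (lmFit, then eBayes with trend) in R 4.3.3, differentiated minus proliferating, without a block. P-values were 2-sided, adjusted by Benjamini-Hochberg over 45037 probe sets and called under 0.05. GEO's platform annotation gave 34945 probe sets 1 gene symbol and 932 several, and 9160 are unnamed here. The brightest probe set on average stood for a gene. All other probe sets of the members are given, and those of the wider lists as counts and for the genes where they bear on a named value. The background limit was the brightest of 27 Bacillus subtilis controls on each array. Where a group lay wholly at or under it, a bound is given: the brighter group's mean over the higher of that limit and the dim signal. Single-value pairs were compared by an exact permutation test over arrays. The members and lists, and the background limit, were chosen with earlier results of these data known. Genes named were all members, all condensin II subunits, up to 4 called genes with the largest change in each other list, and the 5 genes nearest to Top2a and to Top2b. Others are said to be chosen after their values were seen. Alternatives were other scalings, pseudocounts, a filter on dim probe sets, variance models, the regularized test, averaged probe sets, a replicate block and single arrays left out. The fits were tested on simulated data. Python 3.11.15 with pandas 2.3.3, numpy 2.4.6, scipy 1.17.1 and matplotlib 3.10.9 was used for the rest. Protein sequences were not used here.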

Additional observations from a re-analysis of the deposited data

How the results depend on the processing

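Each gene's change was recomputed under 15 alternatives, single arrays left out included. Smc2, Smc4, Ncapd2, Ncapg, Ncaph and Top2a were called lower in all 15. Without a trend in the prior variance, limma called 1367 probe sets higher and 1302 lower over the array, against 2765 and 2894, and the calls of Smc1a (-0.80), Smc3 (-0.63) and Rad21 (-0.40) were lost, leaving 6 of the 9 genes that fell, and 20 of the wider genes fell against 26. Quantile normalization ended the Rad21 call (-0.32), leaving 8, and averaged probe sets ended that of Smc3 (-0.58), leaving 8, with 20 of the wider genes lower. Averaging also moved Smc2 to -1.31, Ncapd2 to -1.47, Top2a to -1.59, condensin I against cohesin to -1.34 and Top2a against Top2b to -1.37. A pseudocount at the 40th percentile (49.6) moved condensin I against cohesin to -1.61. Scaled to the same 75th percentile, 2445 probe sets were higher and 3208 lower. With single arrays left out, Rad21 ranged from -0.51 to -0.30 and was called only without differentiated replicate 2, Top2b ranged from -0.18 to 0.029 (0.029 without proliferating replicate 1 and 0.014 without proliferating replicate 3), condensin I against cohesin from -1.98 to -1.76, Top2a against Top2b from -3.17 to -2.99 (exact p 0.2, the smallest possible for 2 against 3), the member genes that fell from 8 to 9, and the wider genes that fell (26) from 23 to 28 and that rose from 1 to 2 (2 without proliferating replicate 1), with 1950 to 2396 probe sets higher and 2304 to 2542 lower. The cause of these changes was not tested. Averaging brings in probe sets dimmer than the brightest, and leaving out an array fits fewer arrays. Arrays with the same replicate number showed almost no common deviation (correlations of 0.0125, 0.00066 and 0.0094 across probe sets). Those with different numbers gave -0.0147 to 0.0050. Such values cannot show whether arrays of one number were cultured or processed together, which is not known. With the replicate number as a block, 2580 probe sets were higher and 2707 lower, 9 member genes fell (Rad21 at adjusted p = 0.037), and Top2a against Top2b, as an exact paired permutation test, gave p = 0.25, the smallest possible. The 3 arrays per group, and signals close to background after differentiation, limit the size of the falls of Ncapg and of the dim probe sets. Between pseudocounts of 1 and 49.6 the change of Ncapg went from -2.89 to -2.15. That of Smc2 went from -3.02 to -2.59 and that of Ncapd2 from -2.88 to -2.38, so their sizes depend on this setting too.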
